A study of Mus musculus with 12 samples.

Results

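The genes described here encode the telomerase particle and the CST complex, and they are taken by name from the deposited count table: *Tert*, *Dkc1*, *Nop10*, *Nhp2*, *Gar1*, *Wrap53* and *Naf1* for telomerase and its assembly, and *Ctc1*, *Stn1* and *Ten1* for CST. All 10 are among its 22794 genes. Of these, 9 passed the filter on low counts, as did 14412 genes in all, and *Tert* did not. The table covers cardiomyocytes isolated from hearts of wild-type C57BL6 mice 16 weeks after surgery, in 12 polyA RNA-seq libraries, 3 in each of 4 groups. The groups are sham surgery with saline (sham saline), sham surgery with JV101 (sham JV101), 5/6 nephrectomy with saline (NX saline) and 5/6 nephrectomy with JV101 (NX JV101). A 5/6 nephrectomy removes most of the kidney mass and is a model of chronic kidney disease. The series title speaks of gene therapy that recaps telomeres, but the labels do not say what JV101 contains, how it was given or when. Age, sex and the number of animals behind a library are not given either. Replicates carry a number but no stated origin, and p-values here therefore cover the spread among these libraries only, which may be technical.

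Telomerase is a reverse transcriptase, TERT, that copies a template in its own RNA subunit onto chromosome ends. That RNA carries an H/ACA domain, a fold shared with the small nucleolar RNAs that guide pseudouridylation, and dyskerin (*Dkc1*), NOP10, NHP2 and GAR1 bind it as a core. The CST complex binds the single-stranded overhang that telomerase leaves, ends its extension and brings in DNA polymerase alpha-primase to fill in the opposite strand. Adult cardiomyocytes rarely divide and are known for very low telomerase activity. The RNA subunit gene *Terc* was not analysed here.

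Promoter sequences are shown for *Tert*, the catalytic gene that was close to absent from these libraries, and for *Nop10* and *Ten1*, the pair whose RNA levels ran most closely together. They are RefSeq sequences of build GRCm38.p6, an older assembly than the GRCm39 used for the reads. Each runs 5′ to 3′ along the gene's strand, from 250 bases before the annotated start, and is shown as its first 280 bases. *Tert* lies on the + strand at chr13:73626661-73626940, *Nop10* on the + strand at chr2:112261676-112261955, and *Ten1* on the + strand at chr11:116198605-116198884. Capitals mark matches, on either strand, to the E-box CACGTG, the GC box GGGCGG or the ETS motif CCGGAAG.
Tert: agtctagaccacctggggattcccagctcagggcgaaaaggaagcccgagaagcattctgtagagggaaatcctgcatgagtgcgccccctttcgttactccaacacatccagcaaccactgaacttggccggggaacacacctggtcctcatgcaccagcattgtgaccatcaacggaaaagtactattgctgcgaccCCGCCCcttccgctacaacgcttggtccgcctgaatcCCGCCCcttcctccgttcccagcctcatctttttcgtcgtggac
Nop10: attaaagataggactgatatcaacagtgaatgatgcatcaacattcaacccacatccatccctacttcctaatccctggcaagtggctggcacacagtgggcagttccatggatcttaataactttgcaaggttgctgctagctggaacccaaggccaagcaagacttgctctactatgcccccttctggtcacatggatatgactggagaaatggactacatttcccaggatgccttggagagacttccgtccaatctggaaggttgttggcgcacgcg
Ten1: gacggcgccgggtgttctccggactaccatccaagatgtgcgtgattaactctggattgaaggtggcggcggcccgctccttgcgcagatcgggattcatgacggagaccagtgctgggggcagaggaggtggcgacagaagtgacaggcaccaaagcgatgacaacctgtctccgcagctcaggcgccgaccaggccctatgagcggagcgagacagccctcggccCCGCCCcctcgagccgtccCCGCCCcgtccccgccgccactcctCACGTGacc

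*Tert* holds GC boxes at 51 and 14 bases before its start. *Ten1* has them at 23 and 4 bases before its start and an E-box 22 bases into the transcript. In *Nop10* none of the 3 letter strings is found. Across the 300 bases of each entry, 9 of the 10 genes have a RefSeq promoter, and *Wrap53* has 2, which makes 10 promoters. A GC box is in 5 of them (*Tert*, *Nhp2*, *Ctc1*, *Stn1* and *Ten1*), against 35.66% of all 32851 mouse promoters of that length. The E-box is in 3 (*Wrap53* from 1 of its 2 starts, *Ctc1* and *Ten1*), against 7.15% of all, and the ETS motif is in 2 (*Nhp2* and *Gar1*), against 8.858%. The 3 strings share no overlapping matches in these promoters.

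The libraries held 26407125 to 33834238 counts, of which 36.7% to 69.0% fell on the 13 protein-coding genes of mitochondrial DNA. Fewest counts were left for nuclear genes in sham saline replicate 2 and NX saline replicate 3. Every cardiomyocyte marker listed (10 genes) was detected, at a summed level of 34054 to 67848 CPM (counts relative to library size, here scaled with TMM factors). Markers of other cells were present in every group. The 9 fibroblast markers summed to 502 to 2812 CPM, the 8 endothelial ones to 328 to 1993 and the 9 macrophage ones to 156 to 802. Cycling-cell markers (10 genes) summed to 7.15 to 18.2 CPM and lymphocyte markers (10 genes) to 1.47 to 16.9. In such a mixture, fewer cells of a type and less RNA per cell cannot be told apart, and the part of these cells in the levels below was not tested. Libraries also differed in the balance of short and long RNAs. The median log2 CPM of 1719 genes of 500 to 1500 nt minus that of 6562 genes of at least 4000 nt, each relative to the gene's own mean, ran from −0.23 to 0.25. The extremes were NX saline replicate 3 and sham saline replicate 1 at the low end, both at −0.22 or below, and sham saline replicate 3 at the high end.

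Per length, the 10 genes spanned more than 3 orders of magnitude, with the small core protein gene *Nop10* on top and *Tert* at the bottom. In deposited FPKM, *Nop10* averaged 33.2 ± 9.96 (SD, n = 12) and *Nhp2* 8.86 ± 2.16. A group of 4 followed at about the same level: *Stn1* with 3.44 ± 1.05, *Ten1* with 3.40 ± 0.991, *Gar1* with 3.33 ± 0.790 and *Dkc1* with 3.15 ± 0.754. *Ctc1* averaged 1.75 ± 0.481 FPKM, *Wrap53* 1.71 ± 0.516, *Naf1* 1.02 ± 0.363 and *Tert* 0.0108 ± 0.0163. Among neighbours in this order, the ranges over the 12 libraries did not overlap between *Nop10* and *Nhp2*, between *Nhp2* and *Stn1*, and between *Naf1* and *Tert*. The ranges of the other neighbours overlapped. Within single libraries, *Dkc1* was above *Ctc1* and *Wrap53* above *Naf1* in 12 and 11 of 12, while *Stn1* exceeded *Ten1* in 7. The deposited FPKM divides by all counts, mitochondrial ones included. With nuclear counts as the denominator, *Gar1* moved ahead of *Stn1* and *Ten1*, and the ranges of *Dkc1* and *Ctc1* separated. Among the genes tested, 93.5% had a lower mean FPKM than *Nop10*, 57.4% than *Dkc1* and 33.8% than *Naf1*.

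**Figure D1:**
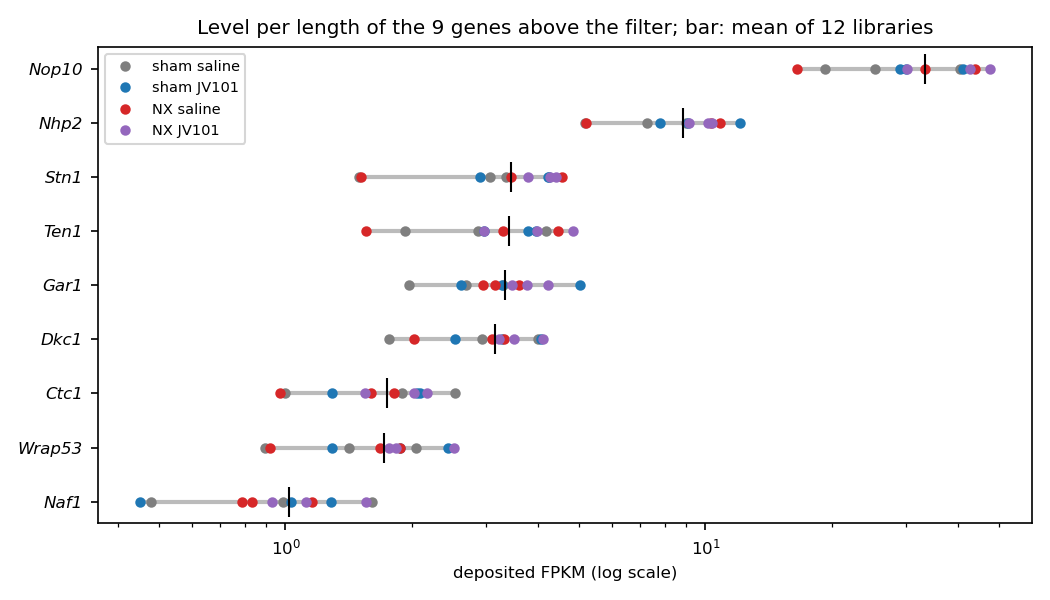
Deposited FPKM (log axis) of the 9 genes that passed the filter. Points are libraries coloured by group, grey lines the range over 12 libraries and black bars the mean. *Nop10* lies between 16.5 and 47.5 in every library, apart from all other genes, and the 4 groups are mixed along each line.

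Within a library, the ratio of 2 genes' FPKM does not depend on the scaling of that library. *Nop10* RNA stood at 10.6 ± 2.35 times *Dkc1* (SD, n = 12; range 6.34 to 14.2), *Nhp2* at 2.84 ± 0.408 times and *Gar1* at 1.08 ± 0.184 times. In the particle the core proteins are present in equal numbers, and the ratios given here are those of their RNAs. In CST, *Stn1* stood at 1.97 ± 0.390 times *Ctc1* and *Ten1* at 1.96 ± 0.365 times. The *Stn1* to *Ctc1* ratio was 1.22, 1.50 and 1.77 in sham saline replicates 1 to 3, and 2.03, 2.25 and 2.05 in sham JV101. It was 2.16, 2.52 and 1.56 in NX saline, and 2.45, 2.11 and 2.03 in NX JV101. All sham saline libraries lay below all libraries of either JV101 group, and they overlapped NX saline through its replicate 3. This ratio was given no test.

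*Tert*, the catalytic subunit, collected 17 counts in all 12 libraries together, with 0 counts in 6 of them. The counts were 4, 0 and 1 in sham saline replicates 1 to 3, 0, 6 and 0 in sham JV101, 1, 4 and 0 in NX saline, and 0, 1 and 0 in NX JV101. Libraries with more than 3 counts, the limit that a count of 0 allows, occurred in sham saline, sham JV101 and NX saline, 1 in each. Pooled by group, this is 0.0564 CPM in the sham saline libraries (exact Poisson 95% interval 0.0183 to 0.131), 0.0652 in sham JV101 (0.0239 to 0.142), 0.0590 in NX saline (0.0191 to 0.138) and 0.00894 in NX JV101 (0.000226 to 0.0498). These intervals cover counting error only, and all 4 overlap. An exact permutation test of mean CPM, 2-sided, gave p = 0.8 for NX saline against sham saline, p = 1 for NX JV101 against sham JV101, p = 1 for JV101 against saline after sham surgery and p = 0.4 after nephrectomy (0.10 is the smallest possible with 3 against 3). The direction of the first 3 of these rested on single libraries, and the difference after nephrectomy, −0.0410 CPM, was −0.0080 without NX saline replicate 2. With at most 6 counts a library and a smallest p of 0.10, no difference in *Tert* between groups could have been shown here.

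Across all 7 comparisons, none of the 9 tested genes passed: edgeR's quasi-likelihood test with Benjamini-Hochberg adjustment over 14412 genes called 0 of 9 at an adjusted p under 0.05, and 0 of 9 had an unadjusted p under 0.05. DESeq2 and limma on log2 FPKM also gave 0 of 9 by both measures in each comparison. The share of all genes called by edgeR was 0% in every comparison. Unadjusted p-values under 0.05 were held by 3.64% of all genes for NX saline against sham saline, 2.07% for NX JV101 against sham JV101, 1.7% for JV101 after sham surgery and 2.39% for JV101 after nephrectomy. They were held by 4.36% for nephrectomy averaged over both injections, 2.28% for JV101 averaged over both surgeries and 1.78% for the interaction, which is the JV101 difference after nephrectomy minus that after sham surgery. Groups whose 3 libraries did not overlap with the other 3 were found for 1 of 9 genes against 10.8% of all genes in NX saline against sham saline, and for 0 against 5.11% in NX JV101 against sham JV101. They were found for 2 of 9 against 3.82% for JV101 after sham surgery and for 0 against 8.22% for JV101 after nephrectomy. Sham saline libraries serve as controls for both nephrectomy and JV101, so those comparisons are not independent of each other. A p-value above the threshold does not show that values were equal, and the intervals below give the differences these libraries could hold.

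**Figure D2:**
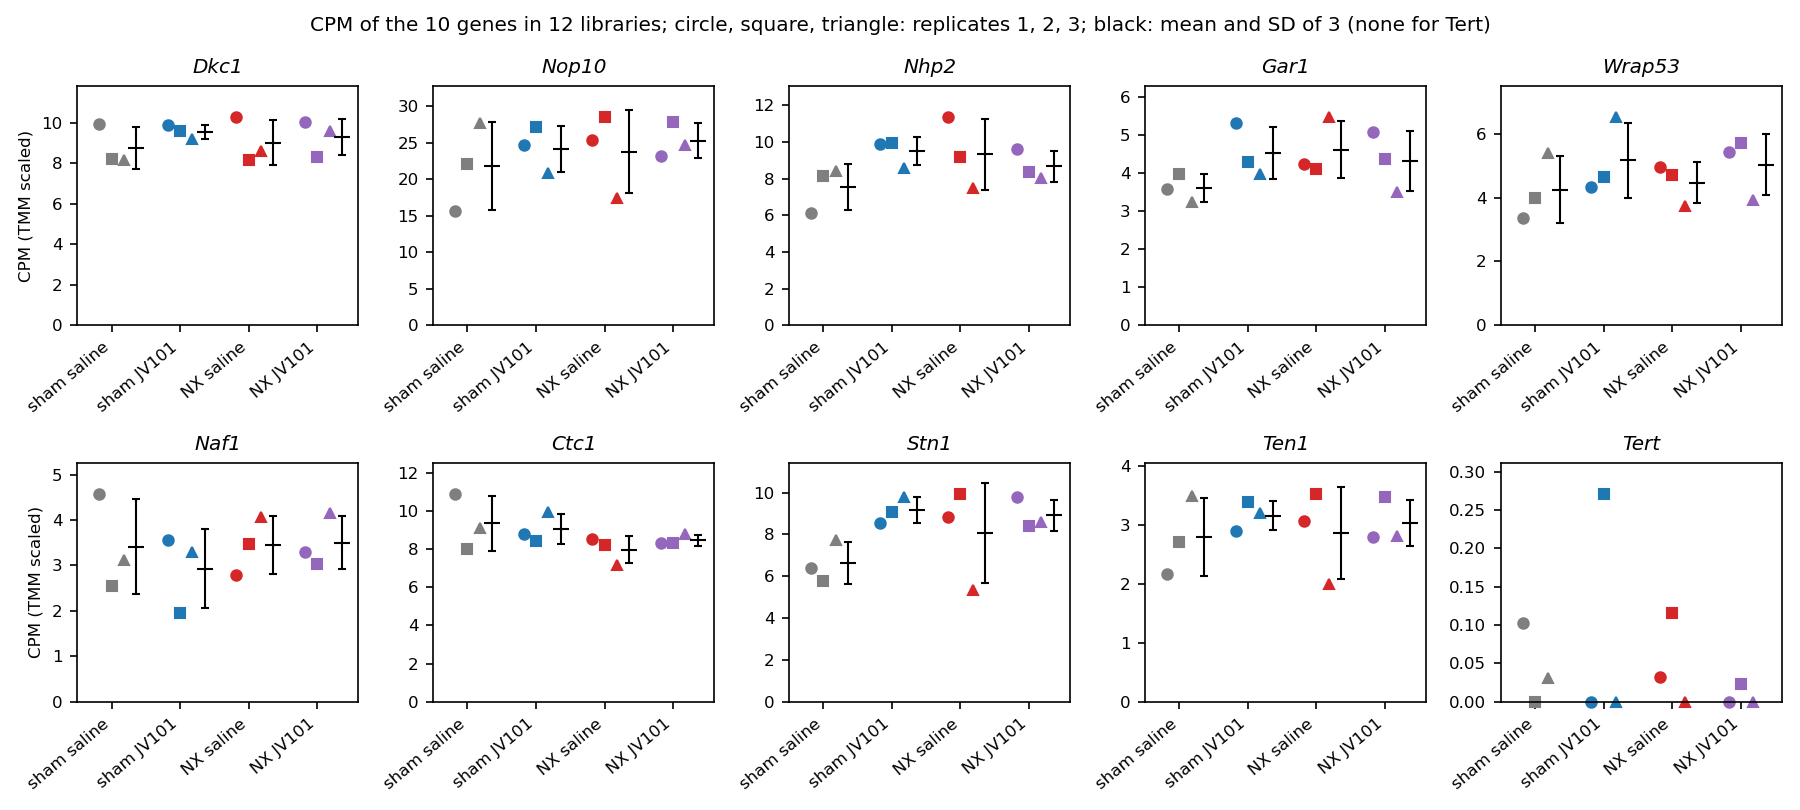
CPM (TMM scaled) of each gene by group, with an axis from 0 in each panel. Circles, squares and triangles are replicates 1, 2 and 3, and black marks the mean ± SD of 3 libraries, left out for *Tert*. The groups overlap in most panels. Without overlap, sham saline lies below sham JV101 for *Stn1* and *Nhp2*, below NX saline for *Gar1* and below NX JV101 for *Stn1*. Of all genes, 3.82% did not overlap between sham saline and sham JV101, and 10.8% between sham saline and NX saline. For sham saline and NX JV101 that share was not counted.

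The H/ACA core is shared by telomerase and small nucleolar ribonucleoproteins. *Dkc1* encodes dyskerin, its pseudouridine synthase, and had the steadiest level of the 9 genes (coefficient of variation over 12 libraries 9.01%). Its CPM were 9.95, 8.20 and 8.14 in sham saline replicates 1 to 3, 9.87, 9.58 and 9.19 in sham JV101, 10.3, 8.13 and 8.61 in NX saline, and 10.01, 8.32 and 9.60 in NX JV101. All 4 groups overlapped. The difference after nephrectomy, averaged over both injections, was 1.00-fold (95% interval 0.850 to 1.18), and that with JV101, averaged over both surgeries, 1.06-fold (0.901 to 1.25). These intervals are the narrowest among the 9 genes, beside those of *Ctc1*.

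*Nop10* encodes the smallest core protein, a support for dyskerin's active site. It stood at 15.6, 22.1 and 27.7 CPM in the sham saline libraries, 24.6, 27.1 and 20.8 in sham JV101, 25.4, 28.5 and 17.4 in NX saline, and 23.2, 27.9 and 24.7 in NX JV101. The 2 lowest libraries, sham saline replicate 1 and NX saline replicate 3, belong to different groups and are the 2 with the lowest balance of short over long RNAs. Sham saline alone covered nearly the whole range of the 12 libraries. The averaged differences were 1.07-fold after nephrectomy (0.839 to 1.36) and 1.08-fold with JV101 (0.852 to 1.38).

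*Nhp2* encodes the core protein that contacts NOP10 and the RNA. It was at 6.11, 8.14 and 8.42 CPM in the sham saline libraries, 9.90, 9.94 and 8.60 in sham JV101, 11.3, 9.17 and 7.47 in NX saline, and 9.60, 8.34 and 8.03 in NX JV101. All sham JV101 libraries were above all sham saline ones, by a narrow gap, and the other pairs of groups overlapped. After sham surgery the JV101 difference was 0.33 on the log2 scale (SE 0.19, edgeR unadjusted p = 0.108, adjusted p = 1), that is 1.26-fold (0.943 to 1.67). For nephrectomy in saline mice it was 0.31 (SE 0.19, edgeR unadjusted p = 0.128, adjusted p = 0.994), and the interaction stood at −0.44 (SE 0.27, edgeR unadjusted p = 0.125, adjusted p = 1). Among JV101 mice, the nephrectomy difference was −0.13 (SE 0.19). Without NX saline replicate 3 the nephrectomy difference in saline mice was 0.46 (unadjusted p = 0.0435), while leaving out NX saline replicate 1 gave 0.14 and leaving out sham saline replicate 1 gave 0.17. The JV101 difference after sham surgery was 0.20 without sham saline replicate 1, and the interaction −0.27 without NX saline replicate 1.

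*Gar1* encodes the protein that joins the particle last, in exchange for NAF1. Its levels were 3.58, 3.98 and 3.25 CPM in the sham saline libraries, 5.31, 4.29 and 3.98 in sham JV101, 4.25, 4.11 and 5.47 in NX saline, and 5.07, 4.36 and 3.52 in NX JV101. All NX saline libraries were above all sham saline ones, the single case without overlap in that comparison. The difference was 0.35 on the log2 scale (SE 0.21, edgeR unadjusted p = 0.127, adjusted p = 0.994), or 1.28-fold (0.922 to 1.77). JV101 after sham surgery gave 0.33 (SE 0.21, edgeR unadjusted p = 0.148, adjusted p = 1), and the interaction was −0.42 (SE 0.30). The nephrectomy difference was 0.24 without NX saline replicate 3, and the JV101 difference 0.20 without sham JV101 replicate 1. The 4 core genes were all positive for NX saline against sham saline (median 0.22, all genes 0.02), though 3 of 4 on deposited FPKM with a pseudocount of 1, and all positive for JV101 after sham surgery (median 0.24, all genes 0.03). For NX JV101 against sham JV101, 1 of 4 was positive (median −0.05, all genes 0.00), and for JV101 after nephrectomy 2 of 4 (median −0.02, all genes 0.01), but on that FPKM scale both counts were 4 of 4 (medians 0.10 and 0.25, all genes 0.11 and 0.21). These counts, in the order given, were 4, 4, 1 and 2 with DESeq2, RLE factors, upper-quartile factors and without mitochondrially encoded genes. Without sham saline replicate 1, 3 of 4 were positive both for NX saline against sham saline (median 0.16) and for JV101 after sham surgery (0.21). For NX saline against sham saline, 3 of 4 were also positive without sham saline replicate 3 (0.31) or NX saline replicate 2 (0.21). Without NX saline replicate 1 the median for NX saline against sham saline was 0.11 with 3 of 4 positive, and that for JV101 after nephrectomy 0.10. The latter was 0.03 without NX JV101 replicate 3, and the median for NX JV101 against sham JV101 was 0.03 without sham JV101 replicate 1.

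Most fibroblast, endothelial and macrophage markers had the same sign as the core genes where all 4 were positive, although edgeR called none of them. For NX saline against sham saline, the 9 fibroblast markers were all positive (median 0.49), as were the 8 endothelial (0.60) and the 9 macrophage markers (0.30), while 2 of 10 cardiomyocyte markers were (median −0.13). For JV101 after sham surgery, 9 of 9 fibroblast (0.39), 8 of 8 endothelial (0.36) and 8 of 9 macrophage markers (0.13) were positive. Mesothelial markers were positive in 10 of 10 for NX saline against sham saline (median 0.36) but in 1 of 10 for JV101 after sham surgery (−0.62). Tested lymphocyte markers were positive in 4 of 6 (0.13) and 0 of 6 (−0.82) in the same order, and cycling-cell markers in 9 of 10 (1.01) and 7 of 10 (0.57). For NX JV101 against sham JV101, 1 of 4 core genes was positive. Fibroblast (9 of 9, median 0.36), endothelial (8 of 8, 0.35) and macrophage markers (8 of 9, 0.27) were positive there too. Of the cycling-cell markers, 0 of 10 were positive in that comparison (−0.57) and 0 of 10 for JV101 after nephrectomy (−0.87). Summed fibroblast markers ran from 794 to 1419 CPM over sham saline libraries, 502 to 2641 over sham JV101, 1017 to 1658 over NX saline and 1239 to 2812 over NX JV101. The endothelial sums were 690 to 959, 328 to 1922, 600 to 1993 and 1000.0 to 1851 in the same order, and the macrophage sums 207 to 535, 156 to 742, 375 to 533 and 291 to 802. No marker of these lists was at 0 in all libraries. Their part in the core gene differences was not tested.

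Assembly and trafficking of the particle are represented by *Naf1* and *Wrap53*. *Naf1* encodes the chaperone that holds dyskerin on nascent H/ACA RNA before GAR1 replaces it. It was the most variable tested gene (coefficient of variation 21.9%) and the one with the lowest level per length. *Naf1* stood at 4.58, 2.54 and 3.13 CPM in the sham saline libraries, 3.56, 1.94 and 3.29 in sham JV101, 2.79, 3.48 and 4.06 in NX saline, and 3.30, 3.04 and 4.16 in NX JV101. Its lowest values were those of sham JV101 replicate 2 and sham saline replicate 2, which rest on 43 and 44 counts. Groups overlapped throughout, and the averaged differences were 1.09-fold after nephrectomy (0.792 to 1.50) and 0.935-fold with JV101 (0.679 to 1.29).

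*Wrap53* encodes TCAB1, which recognises the CAB box of the RNA and carries telomerase to Cajal bodies. Its CPM were 3.38, 3.98 and 5.42 in sham saline, 4.35, 4.65 and 6.53 in sham JV101, 4.98, 4.71 and 3.74 in NX saline, and 5.45, 5.73 and 3.94 in NX JV101. Groups overlapped, and each group held 1 library that stood apart from its other 2. With JV101, averaged over both surgeries, *Wrap53* differed by 0.22 on the log2 scale (SE 0.18, edgeR unadjusted p = 0.230, adjusted p = 1), or 1.17-fold (0.893 to 1.53). This was 0.11 without sham JV101 replicate 3 and 0.33 without sham saline replicate 3. The averaged nephrectomy difference was 0.02 (SE 0.18), with its sign changing without several single libraries.

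Of CST, *Ctc1* encodes the large scaffold subunit and had a coefficient of variation of 11.0%. It was at 10.9, 8.02 and 9.10 CPM in the sham saline libraries, 8.78, 8.41 and 9.94 in sham JV101, 8.53, 8.22 and 7.15 in NX saline, and 8.31, 8.29 and 8.80 in NX JV101. The highest library was sham saline replicate 1 and the lowest NX saline replicate 3, while the remaining 10 lay between 8.02 and 9.94. *Ctc1* had the most negative nephrectomy difference of the 9 genes in saline mice and averaged over both injections, while among JV101 mice it was at −0.10 (SE 0.15) and *Nhp2* at −0.13. The difference was −0.16 averaged over both injections (SE 0.11, edgeR unadjusted p = 0.162, adjusted p = 0.860), or 0.893-fold (0.757 to 1.05), and −0.23 in saline mice alone (SE 0.15, edgeR unadjusted p = 0.163). The value in saline mice was −0.11 without sham saline replicate 1 and −0.14 without NX saline replicate 3. Over the 12 libraries *Ctc1* ran against the mitochondrial share (Pearson's r = −0.72, Spearman's rho −0.71), the strongest such relation among the 9 genes, and the part of that share in its differences was not tested.

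*Stn1* encodes the subunit that contacts polymerase alpha. Among the 9 genes it had the largest difference and the smallest p-value of any comparison. Its CPM were 6.37, 5.77 and 7.74 in sham saline, 8.56, 9.08 and 9.79 in sham JV101, 8.84, 9.95 and 5.36 in NX saline, and 9.78, 8.41 and 8.58 in NX JV101. The 4 lowest of the 12 libraries were the 3 of sham saline and NX saline replicate 3, and all libraries with JV101 lay above these 4. JV101 after sham surgery gave 0.46 on the log2 scale (SE 0.22, edgeR unadjusted p = 0.0545, adjusted p = 1), that is 1.38-fold (0.993 to 1.91). Averaged over both surgeries the JV101 difference was 0.30 (SE 0.15, edgeR unadjusted p = 0.0716, adjusted p = 1), or 1.23-fold (0.979 to 1.55), while after nephrectomy it was 0.14 (SE 0.21).

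The comparison of *Stn1* between NX saline and sham saline turned on NX saline replicate 3. With all libraries it was 0.28 (SE 0.22, edgeR unadjusted p = 0.215), without that library 0.52 (unadjusted p = 0.0151, adjusted p = 0.999), and without NX saline replicate 2 it was 0.10. The interaction was −0.32 (SE 0.30) with all libraries, −0.56 (unadjusted p = 0.0421) without NX saline replicate 3 and −0.14 when replicate 2 of NX saline was left out instead. The JV101 difference averaged over both surgeries was 0.18 without NX saline replicate 3. That library has a mitochondrial share of 66.5% and the lowest balance of short over long RNAs, and the part of either in its *Stn1* level was not tested. Beside the JV101 differences, the summed level of the 10 mesothelial markers ran from 69.2 to 87.8 CPM over sham saline libraries, from 42.3 to 59.9 over sham JV101, from 60.9 to 127 over NX saline and from 36.5 to 45.4 over NX JV101. With JV101 averaged over both surgeries, the median of the mesothelial markers was −0.94. Of these 10, 8 were lower at an unadjusted edgeR p under 0.05, against 2.28% of all genes in either direction. Lymphocyte markers had a median of −1.71 in that comparison, where 4 of the 6 tested were lower at that threshold. Their sums were 4.02 to 16.9, 1.98 to 7.59, 3.42 to 16.5 and 1.47 to 3.65 CPM in the same order of groups. In the direction of *Stn1*, 8 of 9 fibroblast markers (median 0.35), 8 of 8 endothelial ones (0.22) and 7 of 8 of smooth muscle and pericytes (0.40) were positive. The smooth muscle and pericyte sums were 522 to 737, 394 to 943, 466 to 837 and 690 to 996 CPM. The part of these cells in the *Stn1* differences was not tested.

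*Ten1* encodes the smallest CST subunit, which binds STN1. It stood at 2.17, 2.71 and 3.50 CPM in the sham saline libraries, 2.90, 3.39 and 3.20 in sham JV101, 3.07, 3.54 and 2.00 in NX saline, and 2.79, 3.49 and 2.82 in NX JV101, on 37 to 148 counts a library. The lowest libraries were again NX saline replicate 3 and sham saline replicate 1, and all groups overlapped. Its averaged differences were 0.996-fold after nephrectomy (0.749 to 1.32) and 1.09-fold with JV101 (0.820 to 1.45). In the GENCODE vM21 annotation, exon bases of some of the 10 genes also lie in exons of a neighbouring gene, for example in the following cases. *Dkc1* shares 45 bases with *Mpp1*, *Nhp2* shares 44 with *Rmnd5b* and *Stn1* shares 124 with *Gm19557*. Whether the counting used strand is not given in the sources used here, so reads in these stretches cannot be assigned to either gene with certainty.

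**Figure D3:**
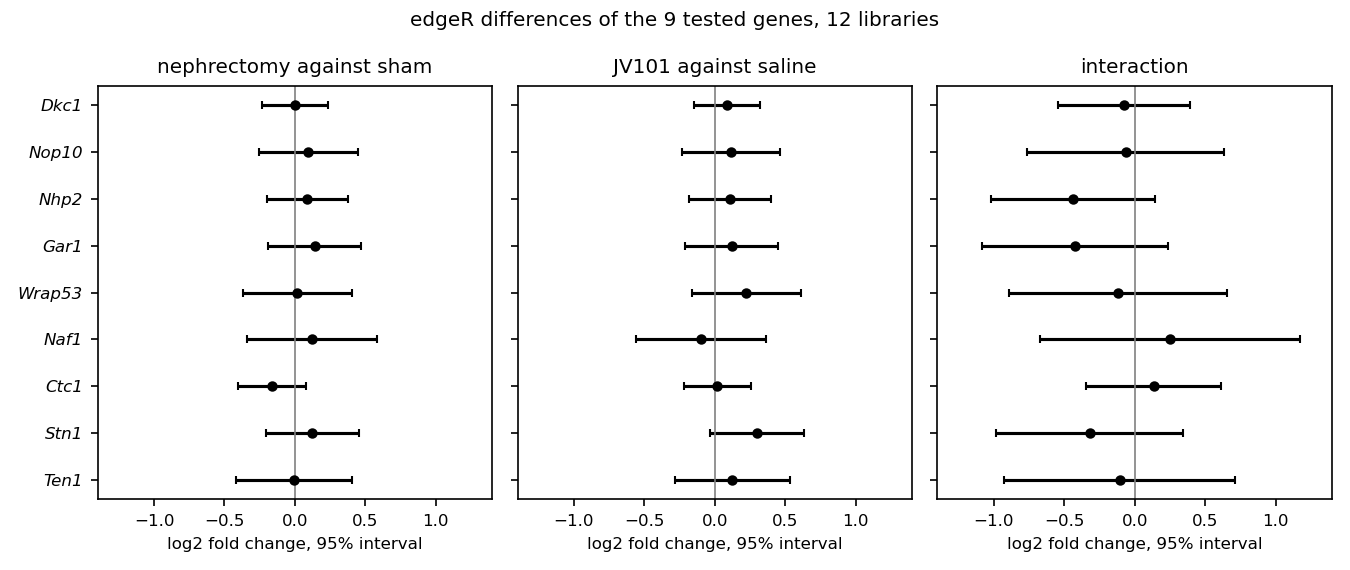
Log2 fold changes from edgeR with 95% intervals for the 9 tested genes: nephrectomy against sham averaged over both injections, JV101 against saline averaged over both surgeries, and the interaction. All 27 intervals include 0. The *Stn1* interval for JV101 reaches from −0.03 to 0.63, and the interaction intervals are the widest.

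As a set, the 9 genes had small median differences. For nephrectomy averaged over both injections the median was 0.09 against 0.01 for all genes, with 7 of 9 positive against 51.6% of all genes. That median was 0.0049 without NX saline replicate 1 (5 of 9 positive, all genes 0.0082), 0.019 without sham JV101 replicate 2 and 0.021 without sham saline replicate 1. It lay between 0.033 and 0.057 when NX saline replicate 2, NX JV101 replicate 1, sham saline replicate 2 or NX JV101 replicate 2 was left out, and was 0.043 with the balance of short over long RNAs as a covariate. For JV101 averaged over both surgeries it was 0.12 against 0.02, with 8 of 9 positive against 55.0%. Here the median was 0.030 without NX saline replicate 3 (7 of 9), 0.070 without NX JV101 replicate 1, 0.076 with that covariate and 0.026 without sham saline replicate 2, NX saline replicate 3 and sham JV101 replicate 2, the 3 libraries of highest mitochondrial share (5 of 9, all genes 0.013). The interaction had a median of −0.11 against −0.03, with 2 of 9 positive against 46.0%, though on deposited FPKM with a pseudocount of 1 it was 0.09 against 0.14 and 6 of 9 were positive. Without single libraries it ran from −0.30 (sham saline replicate 3) to −0.020 (sham saline replicate 1). For NX JV101 against sham JV101 the median was −0.04 against 0.00, with 2 of 9 positive, and on the same FPKM 0.10 against 0.11 with 9 of 9 positive. Without single libraries that median ran from −0.093 (NX JV101 replicate 1) to −0.0080 (NX JV101 replicate 3). More than 1 SE from 0 were 4 of 9 genes for NX saline against sham saline (32.6% of all genes), 4 of 9 for JV101 after sham surgery (21.0%) and 0 of 9 for both NX JV101 against sham JV101 (27.3%) and JV101 after nephrectomy (23.7%). The counts were 1 of 9 for averaged nephrectomy (39.0%), 2 of 9 for averaged JV101 (24.8%) and 3 of 9 for the interaction (20.6%).

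Over the 12 libraries, the 9 genes did not vary as 1 unit, nor did the members of each complex. The closest pair was *Nop10* and *Ten1*, a core protein gene and a CST gene (Pearson's r = 0.90, Spearman's rho 0.87 on log2 CPM, and r = 0.92 after subtracting group means). Leaving out single libraries kept it between 0.88 and 0.96. *Ten1* also ran with *Stn1* (r = 0.75) and *Wrap53* (r = 0.73), and *Nop10* with *Nhp2* (r = 0.70, but 0.44 without sham saline replicate 1). In contrast, *Dkc1* and *Nop10*, whose proteins bind each other, had r = −0.25, and *Ctc1* had r = 0.20 with *Stn1* and 0.05 with *Ten1*. *Naf1* ran against *Nhp2* (r = −0.61) and *Gar1* against *Ctc1* (r = −0.59). All points share the library, its depth and its scaling, so these values describe the libraries and were given no test.

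**Figure D4:**
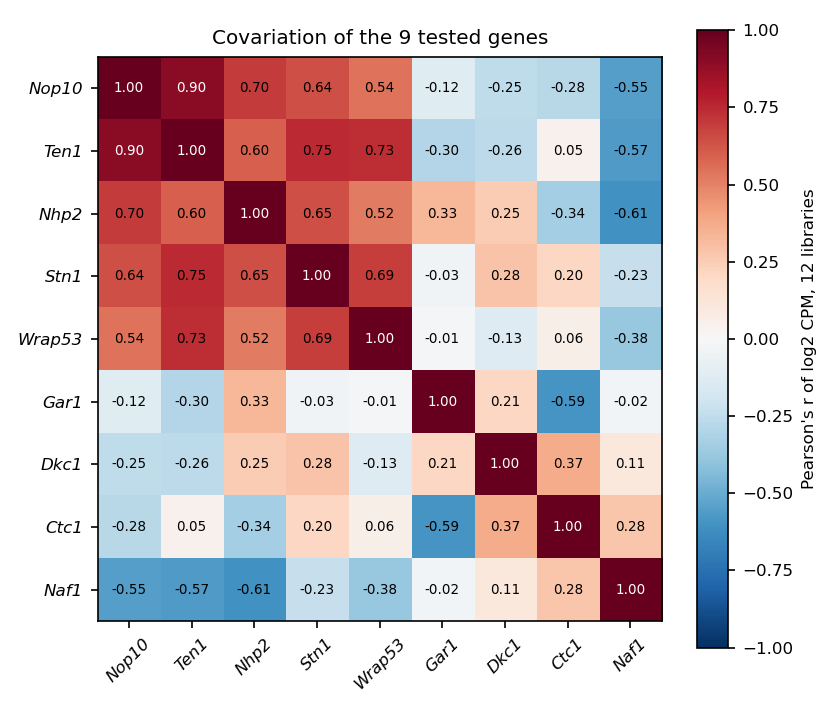
Pearson's r of log2 CPM over 12 libraries for each pair of the 9 tested genes (red positive, blue negative). *Nop10*, *Ten1*, *Nhp2*, *Stn1* and *Wrap53* form a red block with r from 0.52 to 0.90, outside which *Gar1*, *Dkc1*, *Ctc1* and *Naf1* lie.

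The genes of this block followed the libraries' balance of short over long RNAs, *Stn1* only weakly by rank. *Nop10* (738 nt) and *Ten1* (902 nt) had r = 0.80 with it, *Wrap53* (2851 nt) 0.72, *Stn1* (2476 nt) 0.57 and *Nhp2* (1008 nt) 0.57. Spearman's rho was 0.67 for *Nop10* and *Ten1*, 0.76 for *Wrap53*, 0.34 for *Stn1* and 0.52 for *Nhp2*. The measure had r = −0.14 with *Dkc1* (2982 nt, rho −0.02) and 0.01 with *Ctc1* (5155 nt, rho 0.16). *Gar1*, at 1297 nt also a short gene, had r = −0.26 (rho −0.05). For reference, the median r was 0.31 among the 1719 short genes that enter the measure and −0.18 among the long ones. By length, *Nop10*, *Ten1*, *Nhp2* and *Gar1* fall in the range of these short genes, but the genes described here were left out of the measure. The part of RNA length or quality in the covariation was not tested. With this measure as a covariate, an alternative chosen after the data were seen, the *Stn1* difference with JV101 after sham surgery was 0.46 (unadjusted p = 0.0351) and the *Nhp2* interaction −0.50 (unadjusted p = 0.0485), with adjusted p = 1 for both.

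**Figure D5:**
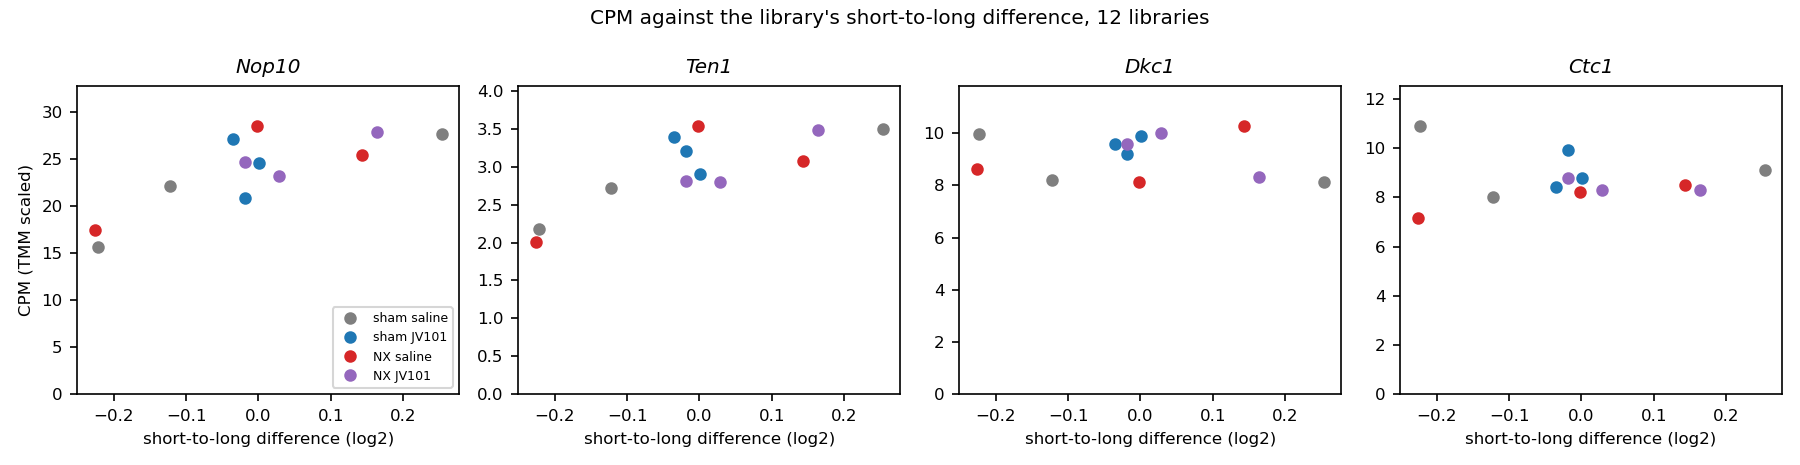
CPM (TMM scaled) of *Nop10*, *Ten1*, *Dkc1* and *Ctc1* against each library's short-to-long difference (log2), coloured by group. *Nop10* and *Ten1* are lowest in the 2 libraries at −0.22 and −0.23, which come from sham saline and NX saline, while *Dkc1* and *Ctc1* show no such slope.

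Outside the 10 genes, the profile most like the mean of the 4 core genes over 12 libraries was that of *Gm39090* (r = 0.89), *Ddx39a* (0.88) and *S100a9* (0.87). For the mean of the 3 CST genes it was that of *2900052N01Rik* (0.95), *2700046G09Rik* (0.94) and *Emc4* (0.92). These are the highest of all tested genes by construction. Low counts lie behind *Gm39090* (0.12 to 1.20 CPM over the 12 libraries), *2900052N01Rik* (0.054 to 1.31) and *2700046G09Rik* (0.054 to 1.27). The core profile followed *Nhp2* (r = 0.91) more than *Dkc1* (0.48), *Nop10* (0.53) or *Gar1* (0.57), and the CST profile followed *Stn1* (0.87) and *Ten1* (0.80) more than *Ctc1* (0.56).

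Genes that work with these complexes were taken from 7 lists of 65 genes, of which 64 were tested. In each of the 7 comparisons 0 of 64 passed in either direction with edgeR, DESeq2 or limma on log2 FPKM. An unadjusted edgeR p under 0.05 was held by 2 of 64 genes for NX saline against sham saline (3.64% of all genes). It was held by 1 of 64 for JV101 after sham surgery (1.7%) and by 0 in the other comparisons (1.78% to 4.36%). All of these belong to the DNA polymerase alpha-primase list. All 7 shelterin genes, which cap the double-stranded repeat, were tested, with a median of 0.12 for averaged nephrectomy (4 of 7 positive) and 0.08 for averaged JV101 (4 of 7). *Pot1a*, which binds the single-stranded overhang, was at 0.18 after nephrectomy (SE 0.15), and *Tinf2*, which bridges shelterin's double-strand binders, at 0.18 with JV101 (SE 0.11). The 7 H/ACA assembly factors had medians of −0.03 and −0.01 in the same comparisons, with the AAA+ ATPase genes *Ruvbl1* at 0.11 (SE 0.09) and *Ruvbl2* at −0.11 (SE 0.09) for JV101. In telomerase RNA processing and trafficking (10 genes), the medians were −0.03 and −0.01. Coilin, *Coil*, the scaffold of Cajal bodies, was at −0.21 after nephrectomy (SE 0.18), and *Parn*, the deadenylase that trims the RNA's 3′ end, at 0.12 (SE 0.13).

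DNA polymerase alpha-primase, the partner of CST, had the largest median of these lists for NX saline against sham saline and for averaged nephrectomy. It did not for averaged JV101 (0.07, shelterin 0.08), and its median for JV101 after nephrectomy was −0.13. Low levels lie behind *Prim1* (0.31 to 1.54 CPM over the 12 libraries) and *Prim2* (0.72 to 2.33). For NX saline against sham saline all 4 genes were positive (median 0.59, all genes 0.02). An unadjusted edgeR p under 0.05 was held by 2 of them, the only ones among all 64 tested list genes, against 3.64% of all genes. Averaged over both injections the median was 0.38, and *Pola2*, its regulatory subunit, averaged 6.30 ± 2.44 CPM in 6 sham and 8.56 ± 1.69 in 6 NX libraries (log2 difference 0.45, SE 0.22, edgeR unadjusted p = 0.0699, adjusted p = 0.860). Cycling-cell markers were positive for NX saline against sham saline too (9 of 10, median 1.01): their sum ran from 8.98 to 10.6 CPM over sham saline libraries and, without overlap, from 10.9 to 18.2 over NX saline. It ran from 8.50 to 14.4 over sham JV101 and from 7.15 to 10.4 over NX JV101, where 0 of 10 were positive against sham JV101 (median −0.57) and alpha-primase had 3 of 4 (median 0.17). Averaged over both injections the median of the cycling-cell markers was 0.13. Their part in it was not tested. Of 12 tested genes of telomere replication and end processing, the flap endonuclease *Fen1* was at −0.32 after nephrectomy (SE 0.16, edgeR unadjusted p = 0.0696, adjusted p = 0.860) and the single-strand binding subunit *Rpa2* at 0.17 (SE 0.11).

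The H/ACA core also serves ribosomal RNA modification, so nucleolar genes were set beside it. In a list of 20 ribosome biogenesis genes, 17 were positive with JV101 averaged over both surgeries (median 0.07, all genes 0.02) and 7 after averaged nephrectomy (median −0.09, all genes 0.01). Within it, nucleophosmin, *Npm1*, was at 0.19 after nephrectomy (SE 0.09, edgeR unadjusted p = 0.0598, adjusted p = 0.860) and the RNA polymerase I subunit gene *Polr1b* at −0.21 (SE 0.14), and the rRNA methyltransferase gene *Nop2* was at 0.20 with JV101 (SE 0.11). The 4 box C/D core genes encode proteins of the particles that methylate rRNA. They had medians of 0.01 for averaged nephrectomy and 0.05 for averaged JV101, with fibrillarin, *Fbl*, at 0.13 for JV101 (SE 0.10).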

How the data were processed

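RNA of isolated cardiomyocytes was sequenced as polyA libraries (12, 3 in each of 4 groups). The submitters' processing notes name fastp, HISAT2, HTSeq and build GRCm39; their versions, gene annotation and use of strand are not given in the sources. Raw counts and FPKM per gene were deposited. The FPKM were made from the same counts, with 1 implied length per gene and all counts, mitochondrial ones included, in the denominator. Libraries held 26407125 to 33834238 counts, so that 1 CPM stood for 17.3 to 42.4 counts. No pair of replicates was a duplicate by a chi-square test of their counts.

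Genes were kept with filterByExpr (minimum count 10, minimum total 15), scaled with TMM and tested with edgeR's quasi-likelihood F test over all 12 libraries with group as the only term, 2-sided and adjusted by Benjamini-Hochberg over 14412 genes at 0.05. Standard errors were taken from the F statistic, as the size of the log2 difference over its root. *Tert* was tested by exact permutation. Correlations use log2 CPM with a prior count of 2. The software was DESeq2 1.42.0, edgeR 4.0.16 and limma 3.58.1 in R 4.3.3, and the fit was tested on simulated data. The genes and lists were chosen with earlier results of these data known. All 10 genes are named in full; in each pathway list the gene with the smallest p in each direction of the averaged comparisons was eligible for naming, and beyond the 10 genes the 3 closest profiles and exon neighbours on the other strand, of which not all are reported here. Symbols were found in RefSeq GRCm38.p6 for 22096 genes (96.9%).

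The alternatives tried were a replicate block, a fit to only the compared groups, no filter, DESeq2, factors by RLE or upper quartile, limma on log2 FPKM with a pseudocount of 1 or 0.1, leaving out each library and leaving out mitochondrially encoded genes. Leaving out the 3 libraries of highest mitochondrial share and a short-to-long covariate were added after the data were seen. A log2 difference of FPKM plus a pseudocount understates the change of low genes.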

Additional observations from a re-analysis of the deposited data

How the results depend on the processing

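The 29 followed differences were all those of the 9 genes in both averaged comparisons, and elsewhere only those more than 1 SE from 0. None was therefore followed for NX JV101 against sham JV101 or for JV101 after nephrectomy. None of the 646 alternative values of these differences passed the threshold (smallest adjusted p 0.433). Of these values 42 changed sign, all in averaged comparisons. Sign changes of smaller differences in the other comparisons were not counted. Over all genes DESeq2 called 1 for NX saline against sham saline, 8 for JV101 after nephrectomy, 1 for averaged nephrectomy and 7 for averaged JV101, where edgeR called 0. None of the 9 genes was among them. The cause was not tested.

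For averaged nephrectomy, *Dkc1* (0.00) was −0.0028 with DESeq2, −0.00090 with RLE, −0.0048 with upper-quartile factors and −0.0043 without mitochondrial genes. *Ten1* (−0.01) was 0.054 and 0.057 on log2 FPKM with a pseudocount of 1 and 0.1, and 0.113 without the 3 libraries of highest mitochondrial share, where *Naf1* was −0.124. *Wrap53* was −0.033 with the short-to-long covariate. Without 1 library, *Dkc1* ranged from −0.055 to 0.051, *Nop10* from −0.0018 to 0.20, *Wrap53* from −0.057 to 0.12 and *Ten1* from −0.095 to 0.098.

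For averaged JV101, *Ctc1* (0.02) was −0.0081 with DESeq2, −0.0027 with RLE and −0.059 without the 3 libraries, where *Nop10* was −0.034 and *Ten1* −0.029. *Naf1* (−0.10) was 0.062 and 0.113 on log2 FPKM. On FPKM the median of all genes was 0.14 and 0.21, so that *Naf1* stayed below it. Without 1 library, *Ctc1* ranged from −0.027 to 0.084 and *Naf1* from −0.18 to 0.042.

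The difference in *Tert* CPM ranged without 1 library from −0.0286 to 0.0334 for NX saline against sham saline, from −0.128 to 0.00786 for NX JV101 against sham JV101 (the highest without sham JV101 replicate 2), from −0.0444 to 0.0911 for JV101 after sham surgery (the lowest without the same library) and from −0.0655 to −0.0080 for JV101 after nephrectomy (the highest without NX saline replicate 2).

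Unadjusted p-values under 0.05 were held by 11 of the 646 alternative values, 9 for *Stn1* and 2 for *Nhp2*. Several of these values came from the same fit. Without NX saline replicate 3, both genes were under 0.05 for NX saline against sham saline, beside 351 of all 14874 genes. In that fit *Stn1* was also under 0.05 for JV101 after sham surgery and for the interaction. Same-numbered replicates did not pair: their correlation of deviations ran from −0.50 to 0.25 over 18 pairs, and 3 of 12 libraries correlated best with their own number. With a replicate block 0 of 9 genes and 0 genes overall were called, *Dkc1* was at −0.00090 for averaged nephrectomy, *Stn1* at 0.46 for JV101 after sham surgery, and no other followed difference changed sign. Depth limits *Tert* (at most 6 counts a library), and *Ten1* and *Naf1* in the libraries of lowest nuclear counts.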
